A study of Drosophila melanogaster with 8 samples.

Results

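The transcripts described here encode the Hsp70-type chaperones of the cytosol, the endoplasmic reticulum and the mitochondrion, the cytosolic Hsp90, and a pair of partner proteins of Hsp70. The members were chosen by gene name, as Hsc70-1, Hsc70-2, Hsc70-3, Hsc70-4, Hsc70-5, Hsc70Cb, Hsp68, Hsp83 and DnaJ-1. All 9 were present among the 12051 genes of the deposited table, and all 9 passed the filter on low values. The names were picked with earlier results of these data known, and no threshold on values was applied. RNA came from testis lysates of wild-type (WT) Drosophila melanogaster aged 2 to 7 days, after precipitation with antibodies specific to one of the paralogous large-subunit ribosomal proteins. The groups are 4 libraries of the eRpL22-like pulldown (replicates 1 to 4) and 3 libraries of the eRpL22 pulldown (replicates 1 to 3), and a further eRpL22 library named in the labels was not analysed here. The study asks which RNAs sit on ribosomes that carry each paralogue. No input RNA and no mock precipitate is labelled, so RNA held by the ribosomes cannot be told apart from RNA that both precipitates share as background.

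Hsp70 proteins bind short hydrophobic stretches of unfolded proteins and release them in a cycle driven by ATP. J-domain proteins such as DnaJ-1 deliver clients and stimulate ATP hydrolysis, and nucleotide exchange factors such as the Hsp110 protein Hsc70Cb reset the cycle. Hsp90 takes over late folding steps of kinases, receptors and other clients, often from Hsp70. The cognate (Hsc70) genes are expressed without stress, whereas Hsp68 is a heat-inducible member of the family. In a spermatogenic tissue such chaperones serve cells that make large amounts of sperm tail, mitochondrial and chromatin protein.

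Library depth and composition were compared first. Reads recovered from the table totalled 22448043 to 25159184 per eRpL22-like library and 15971685 to 26346787 per eRpL22 library. Genes listed at 0 numbered 2923 and 3014 in eRpL22-like replicates 1 and 3, 1411 and 1670 in eRpL22-like replicates 2 and 4, and 2098 to 2245 in the eRpL22 libraries. eRpL22-like replicates 1 and 3 thus stood apart from the other libraries of their pulldown. The 21 germline markers of the testis together took 2.66% to 2.80% of the reads with eRpL22-like and 2.55% to 3.08% with eRpL22, which fits the labelled tissue. Of the 21, nos, bam and tomb, named after their values were seen, were each at 0 in at least 1 library, and the others in none. Limma, as described below, called 0 of the 21. It had 3 lower with eRpL22-like at an unadjusted p under 0.05 and 0 higher, against 2.1% and 2% of all genes. These were S-Lap1, Mst87F and dj, named after their values were seen, which had the 3 highest means of the list. Only dj did not overlap, against 2.76% of all genes in that direction. Accessory gland markers (8 genes) took 0.162% to 0.265% with eRpL22-like and 0.164% to 0.255% with eRpL22. Muscle markers (10 genes) took 0.0390% to 0.156% with eRpL22-like and 0.0350% to 0.0506% with eRpL22, and neuronal markers (7 genes) took 0.0203% to 0.0342% with eRpL22-like and 0.0231% to 0.0328% with eRpL22. Fat body markers (5 genes) took 0.00738% to 0.0112% with eRpL22-like and 0.00564% to 0.0182% with eRpL22. Haemocyte markers (3 genes) took at most 0.00754% with eRpL22-like and 0.00266% with eRpL22. Hub and cyst cell markers (8 genes) together took 0.0165% to 0.0256% with eRpL22-like and 0.00510% to 0.0158% with eRpL22, so that their summed share did not overlap. In such bulk libraries fewer cells of a type and less RNA per cell cannot be told apart.

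No transcript of the 9 passed the test between the pulldowns, and Hsc70-1 was the only one of them whose library values did not overlap. Of all genes tested, 5.14% had library values that did not overlap. The values are the authors' normalized reads, that is, whole reads divided by a factor of the library. The test was limma on log2(normalized reads + 1) over all 11174 genes with a mean of at least 10, with Benjamini-Hochberg adjustment and a threshold of 0.05. Fold changes are given as log2, with eRpL22-like on top, on that scale, which understates changes of low genes. Limma called 0 of the 9 members and 0% of all genes tested. At an unadjusted p under 0.05 it had 1 member, Hsc70-4, which was higher with eRpL22-like, against 4.11% of all genes (2% higher and 2.1% lower). Log2 fold changes were positive for 5 members and negative for 4, against 48.8% positive and 51.2% negative over all genes. The members had a median of 0.11, against a median of -0.032 over all genes tested. Their standard errors (SE) ran from 0.20 to 0.70, against a median SE of 1.89 over all genes. For Hsc70-2, Hsc70-3, Hsc70-5 and Hsp83, 4 of the 9, the 95% interval lay within 2-fold either way, as it did for 5.31% of all genes. Neither comparison with all genes is matched for level. SEs here follow level, and all 9 members had a mean of at least 1000, as did only 3474 other genes. Nothing in the labels says that replicates came from separate groups of flies. The p-values therefore reflect only how these libraries varied, and that variation may be technical. Limma also draws the variance of each gene towards a trend with level over all genes. An SE is thus not the spread of that gene alone. For Hsc70-1, whose libraries lay close together within a pulldown, this widened the SE, and for Hsc70-4, whose libraries spread widely, it narrowed the SE.

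**Figure D1:**
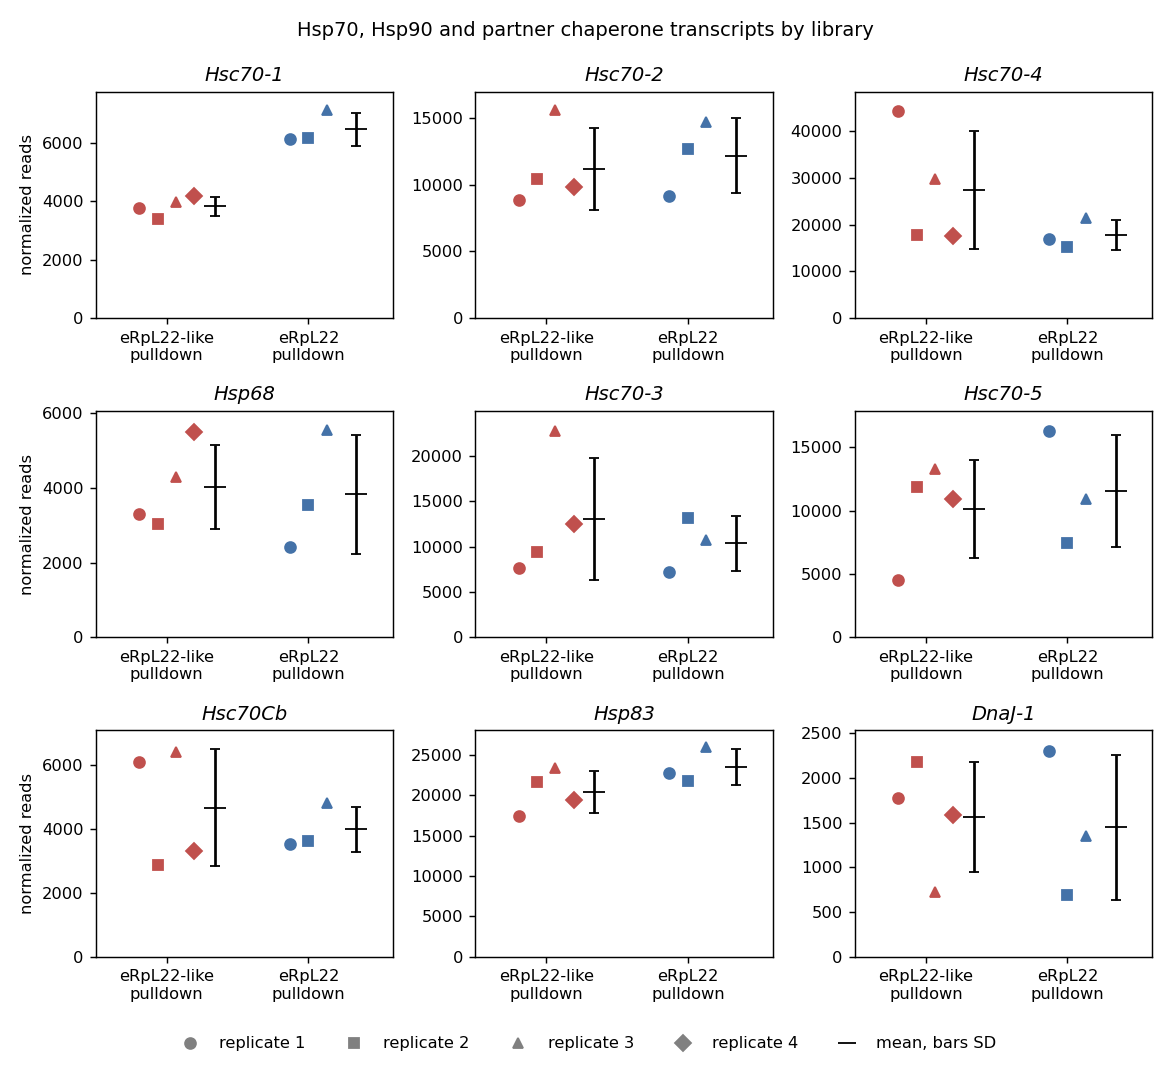
Normalized reads (linear axes from 0) of each transcript in every library, with eRpL22-like libraries in red and eRpL22 libraries in blue. Bars give mean and SD. For Hsc70-1 the 4 eRpL22-like libraries lie at 3395 to 4182, below the 3 eRpL22 libraries at 6131 to 7124, whereas the points of the other 8 transcripts overlap between pulldowns.

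Among the cytosolic Hsp70 genes, Hsc70-1 (FBgn0001216), a heat shock cognate, was lower in every eRpL22-like library than in any eRpL22 library. Its values were 3762, 3395, 3964 and 4182 normalized reads in eRpL22-like replicates 1 to 4, against 6131, 6150 and 7124 normalized reads in eRpL22 replicates 1 to 3. The lowest eRpL22 library stood 1.47-fold above the highest eRpL22-like library. The means were 3826 ± 335 (SD, n = 4) with eRpL22-like and 6468 ± 568 (SD, n = 3) with eRpL22, a ratio of 0.591. Limma gave a log2 fold change of -0.76 with an SE of 0.38, an unadjusted p of 0.0563 and an adjusted p of 0.945, so the difference did not pass. Over all genes tested, 2.76% had library values that did not overlap and were lower with eRpL22-like.

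The negative direction of Hsc70-1 was the same in all 17 alternative settings tried. Neither leaving out 1 library nor blocking on replicate number could reverse it, since the library values of Hsc70-1 did not overlap. A changed filter on low values leaves the log2 fold change of Hsc70-1 as it was. Its log2 fold change ran from -0.80 to -0.69 as each library was left out in turn, and stood at -0.66 with library totals only. edgeR on the recovered reads gave -0.76 at an unadjusted p of 0.0253 and an adjusted p of 1.00 (0 of 9516 genes called, 377 at an unadjusted p under 0.05, 3.96%). DESeq2 on the same reads gave -0.76 at an adjusted p of 0.0978, in a fit that called 1.72% of 9386 genes. The authors' deposited table has a log2 fold change of -0.76 for Hsc70-1, with a p of 0.00233, where 5.53% of its genes have a p under 0.05, and an adjusted p of 0.293, where it calls 0.174%. These fits use the same libraries and are not separate evidence. The summed share of the hub and cyst cell markers also did not overlap between the pulldowns, but each of the 8 markers overlapped by itself, with 5 positive and 3 negative log2 fold changes and 0 called by limma. Of these markers, ptc, tj, zfh1 and the gene named so are given after their values were seen. The gene so had 2205 normalized reads in eRpL22-like replicate 3, and ptc had 3176 in eRpL22-like replicate 1. Each of tj, ptc and zfh1 was at 0 in 1 library. The part of the hub and cyst cell markers in the difference of Hsc70-1 was not tested.

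Hsc70-4 (FBgn0266599), the main constitutive Hsp70 of the cytosol, which also uncoats clathrin vesicles, had a higher mean with eRpL22-like that rested on a pair of libraries. It stood at 44301, 17905, 29806 and 17644 normalized reads in eRpL22-like replicates 1 to 4, against 17024, 15197 and 21442 in eRpL22 replicates 1 to 3. eRpL22-like replicates 1 and 3 were above every eRpL22 library, and eRpL22-like replicates 2 and 4 lay within the eRpL22 range. The means were 27414 ± 12606 (SD, n = 4) with eRpL22-like and 17888 ± 3211 (SD, n = 3) with eRpL22. Limma gave a log2 fold change of 0.52 with an SE of 0.25, an unadjusted p of 0.0422 and an adjusted p of 0.945. It was 0.25 without eRpL22-like replicate 1 and 0.45 without eRpL22-like replicate 3. The same 2 eRpL22-like libraries were those with the most genes at 0, and the part of library composition in the difference was not tested.

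Hsc70-2 (FBgn0001217), another cytosolic cognate, overlapped throughout. Its normalized reads were 8834, 10408, 15657 and 9862 in eRpL22-like replicates 1 to 4, against 9159, 12688 and 14725 in eRpL22 replicates 1 to 3. The highest and the lowest library both belonged to eRpL22-like. Limma gave a log2 fold change of -0.13 with an SE of 0.28 and an adjusted p of 0.973, and its 95% interval, in folds, ran from 0.614 to 1.36.

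Hsp68 (FBgn0001230), the heat-inducible member, was detected in every library. It had 3296, 3031, 4283 and 5485 normalized reads in eRpL22-like replicates 1 to 4 and 2409, 3547 and 5549 in eRpL22 replicates 1 to 3. The eRpL22 libraries bracketed the eRpL22-like libraries. Limma put its log2 fold change at 0.11, SE 0.45 (adjusted p = 0.979). Its sign was not stable, at -0.18 without eRpL22 replicate 1 and -0.049 without eRpL22-like replicate 4.

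**Figure D2:**
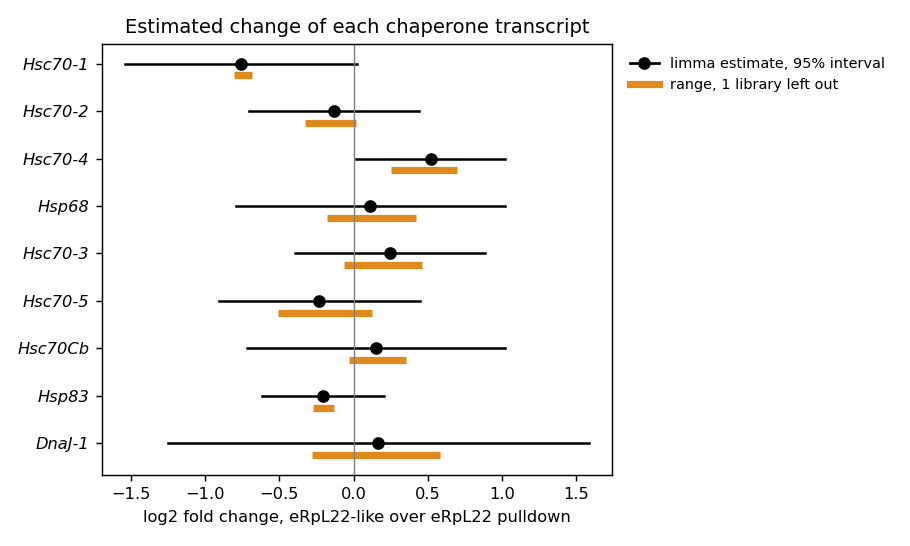
Limma estimate for each transcript, as log2 fold change with eRpL22-like on top (dots), with its 95% interval (black lines), and the range of the estimate when 1 library at a time is left out (orange bars). The orange bars of Hsc70-1 (-0.80 to -0.69), Hsc70-4 (0.25 to 0.70) and Hsp83 (-0.27 to -0.13) stay on one side of 0, and those of the other 6 transcripts reach both sides.

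The transcripts of the organelle Hsp70 proteins varied more between replicates than between pulldowns. Hsc70-3 (FBgn0001218) encodes the chaperone of the endoplasmic reticulum known as BiP. It stood at 7631, 9374, 22732 and 12520.1 normalized reads in eRpL22-like replicates 1 to 4, against 7193, 13142 and 10766 in eRpL22 replicates 1 to 3. eRpL22-like replicate 3 was the highest library, and without it the log2 fold change of 0.25 (SE 0.32, limma adjusted p = 0.946) was -0.061. Hsc70-5 (FBgn0001220), the mitochondrial Hsp70 that draws imported proteins into the matrix, stood at 4497, 11838, 13277 and 10947 normalized reads in eRpL22-like replicates 1 to 4, against 16265, 7473 and 10947 in eRpL22 replicates 1 to 3. Its lowest library was eRpL22-like replicate 1 and its highest eRpL22 replicate 1, and without either the log2 fold change of -0.23 (SE 0.33, limma adjusted p = 0.952) became positive, at 0.12 and 0.05.

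Of the partners of Hsp70, Hsc70Cb (FBgn0026418) had 6093, 2884, 6397 and 3304 normalized reads in eRpL22-like replicates 1 to 4, against 3540.3, 3612 and 4811 in eRpL22 replicates 1 to 3. eRpL22-like replicates 1 and 3 were above the eRpL22 range and replicates 2 and 4 below it, so that the groups overlapped. The pair of eRpL22-like libraries with high values was the same as for Hsc70-4. Limma put its log2 fold change at 0.15, SE 0.43 (adjusted p = 0.974), and at -0.0044 without eRpL22-like replicate 1 and -0.028 without eRpL22-like replicate 3. DnaJ-1 (FBgn0263106), the J-domain partner, had the lowest read numbers among the 9 transcripts, 682 to 2918 recovered reads per library. Its normalized reads were 1769, 2179, 721 and 1586 in eRpL22-like replicates 1 to 4 and 2302, 695 and 1344 in eRpL22 replicates 1 to 3. The highest library of a pulldown stood 3.02-fold above the lowest with eRpL22-like and 3.31-fold with eRpL22. Its log2 fold change of 0.17 had an SE of 0.70 (limma adjusted p = 0.981), and its 95% interval, in folds, ran from 0.420 to 3.00.

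Hsp83 (FBgn0001233), the cytosolic Hsp90 of the fly, was among the steadiest of these transcripts. Its normalized reads were 17440.3, 21689.6, 23368 and 19378 in eRpL22-like replicates 1 to 4, against 22799.9, 21753 and 26022 in eRpL22 replicates 1 to 3. The 2 lowest libraries were eRpL22-like replicates 1 and 4, and the groups overlapped. The means were 20469 ± 2598 (SD, n = 4) with eRpL22-like and 23525 ± 2225 (SD, n = 3) with eRpL22, with a log2 fold change of -0.21 and an SE of 0.20 (limma adjusted p = 0.945). The 95% interval, in folds, ran from 0.651 to 1.16.

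**Figure D3:**
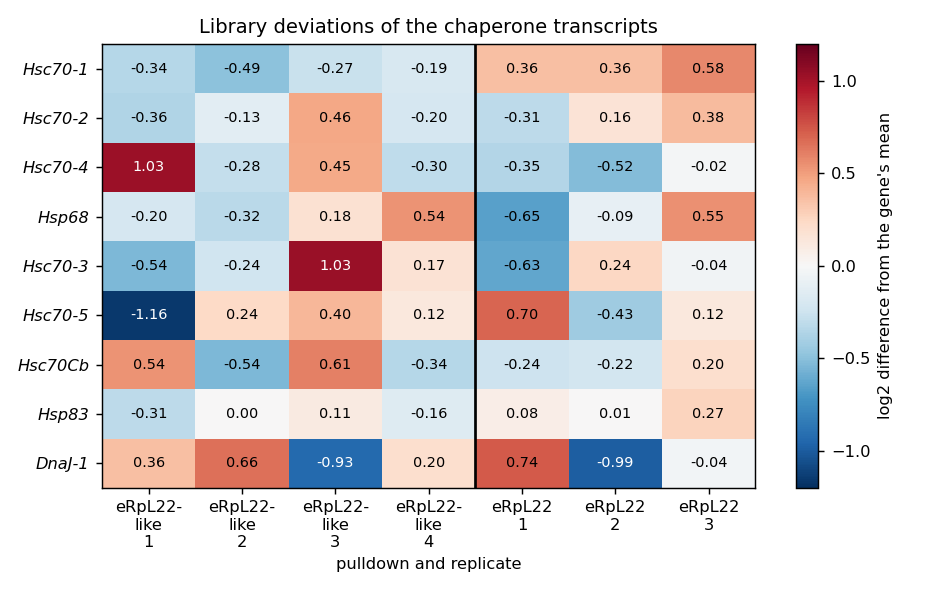
Log2 difference of each library from the mean of that transcript over the 7 libraries (red above, blue below, values printed), with eRpL22-like replicates 1 to 4 left of the black line and eRpL22 replicates 1 to 3 right of it. The row of Hsc70-1 is below its mean in all 4 eRpL22-like libraries and above it in all 3 eRpL22 libraries, and no other row divides this way.

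The 9 transcripts did not move as one across libraries. In eRpL22-like replicate 1, Hsc70-4 was 1.03 above its mean on the log2 scale, while Hsc70-5 stood at -1.16. In eRpL22-like replicate 3, 7 of the 9 were above their means, led by Hsc70-3 at 1.03, while DnaJ-1 stood at -0.93. The median deviation in eRpL22-like replicate 3 was 0.40 over the 9, against -0.29 over all genes tested. In eRpL22 replicate 3, 6 of the 9 were above their means, with a median of 0.20, against -0.051 over all genes tested. In the other libraries 3 or 4 of the 9 were above. Their medians there ran from -0.31 to -0.094, against -0.26 to 0.20 over all genes tested. The coefficient of variation (SD over mean) within a pulldown was 8.75% with eRpL22-like and 8.78% with eRpL22 for Hsc70-1, and 12.7% with eRpL22-like and 9.46% with eRpL22 for Hsp83. It reached 51.7% for Hsc70-3 with eRpL22-like and 55.9% for DnaJ-1 with eRpL22. Counting error was at most 3.83% for any of these values, so the spread between libraries was larger than sampling of reads gives.

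Together the 9 transcripts took a similar share of the reads in both pulldowns. The share was 0.426%, 0.454%, 0.573% and 0.450% in eRpL22-like replicates 1 to 4, against 0.364%, 0.418% and 0.492% in eRpL22 replicates 1 to 3. The highest was eRpL22-like replicate 3 and the lowest eRpL22 replicate 1, and the ranges overlapped. The means were 0.476% ± 0.0659 (SD, n = 4) with eRpL22-like and 0.424% ± 0.0642 (SD, n = 3) with eRpL22. Ribosomal RNA took 17.2% of the reads of eRpL22 replicate 1, more than in any other library. With ribosomal RNA genes left out of the total, the shares were 0.524% ± 0.0614 (SD, n = 4) with eRpL22-like and 0.480% ± 0.0505 (SD, n = 3) with eRpL22. Reads of Hsp83 and Hsc70-4 made up 63.2% of the members' reads in eRpL22-like replicate 1 and 43.6% to 47.9% in the other 6 libraries. These are shares of reads, which longer transcripts gain more of, and no transcript length was used here, so levels of different genes are not ranked.

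Ratios taken within a library do not depend on how libraries are scaled to each other. Relative to Hsc70-4, the 3 other cytosolic Hsp70 genes and Hsp83 all had a lower mean ratio with eRpL22-like. None of these 4 differences passed a two-sided exact permutation test with adjustment over the 4 ratios. With 4 libraries against 3, that test cannot go below an unadjusted p of 0.0286. After adjustment, a ratio at that floor could pass only if most of the 4 ratios were at it too. The lack of a pass thus says little about whether the ratios differ. All 4 ratios share Hsc70-4 as denominator, and with it the high values of eRpL22-like replicates 1 and 3. Hsc70-1 over Hsc70-4 was 0.0849, 0.190, 0.133 and 0.237 in eRpL22-like replicates 1 to 4, against 0.360, 0.405 and 0.332 in eRpL22 replicates 1 to 3. The groups did not overlap, and the log2 difference of -1.28 had an exact permutation p of 0.0571 (adjusted p = 0.229 over the 4 ratios).

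Hsp83 over Hsc70-4 was 0.394, 1.211, 0.784 and 1.10 with eRpL22-like, against 1.34, 1.43 and 1.214 with eRpL22. The gap between the groups was within the third digit, and the log2 difference of -0.73 had an exact permutation p of 0.114 (adjusted p = 0.229). It was -0.39 without eRpL22-like replicate 1. Hsc70-2 over Hsc70-4 was 0.199, 0.581, 0.525 and 0.559 with eRpL22-like, against 0.538, 0.835 and 0.687 with eRpL22, with overlap (log2 difference -0.65, exact permutation p = 0.257, adjusted p = 0.343). Without eRpL22-like replicate 1 this difference was -0.29. Hsp68 over Hsc70-4 was 0.0744, 0.169, 0.144 and 0.311 with eRpL22-like, against 0.142, 0.233 and 0.259 with eRpL22, also with overlap (log2 difference -0.41, exact permutation p = 0.514, adjusted p = 0.514). Without eRpL22-like replicate 1 it was -0.059. The Hsc70 genes are similar in sequence, the libraries hold single reads of 50 bases, and how reads that match several genes were counted is not given in the sources used here. Exchange of reads between paralogues was not tested.

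**Figure D4:**
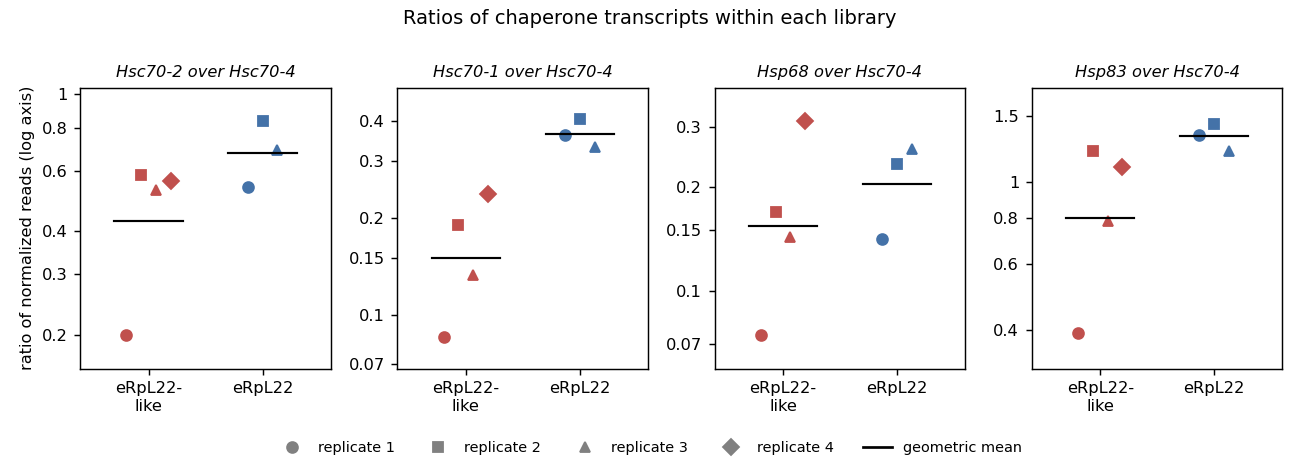
Ratio of normalized reads within each library (log axis) for Hsc70-2, Hsc70-1, Hsp68 and Hsp83 over Hsc70-4, with eRpL22-like libraries in red left of eRpL22 libraries in blue and a line at the geometric mean. For Hsc70-1 over Hsc70-4 the eRpL22-like libraries lie at 0.0849 to 0.237, below the eRpL22 libraries at 0.332 to 0.405.

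Other genes of the Hsp70 and Hsp90 machinery likewise had no call. Of 6 further relatives listed, 5 were tested and 0 were called by limma, with 0 at an unadjusted p under 0.05, 2 with positive and 3 with negative log2 fold changes and a median of -0.26. CG2918 had 4871 ± 1388 normalized reads (SD, n = 4) with eRpL22-like and 4072 ± 1092 (SD, n = 3) with eRpL22. Trap1, the mitochondrial Hsp90, had 3244 ± 1409.5 with eRpL22-like and 4070.3 ± 1021 with eRpL22. CG7182 had 2756 ± 861 with eRpL22-like and 3640.1 ± 2143 with eRpL22. All 3 overlapped between the pulldowns. The strictly heat-inducible genes Hsp70Ba and Hsp70Bc, named after their values were seen, were listed at 0 in all 4 eRpL22-like libraries and in eRpL22 replicates 1 and 2, and had 24.6 and 259 normalized reads in eRpL22 replicate 3. A count of 0 allows up to 3 reads, or 2.24 to 4.49 normalized reads. They belong to a cluster of near-identical copies, so their own values are uncertain.

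Of 32 other J-domain genes tested, limma called 0 and had 2 at an unadjusted p under 0.05, both higher with eRpL22-like, against 4.11% of all genes (2% higher), with 14 positive and 18 negative log2 fold changes and a median of -0.084. l(2)tid, a mitochondrial J-domain protein, had 14311 ± 4329 normalized reads (SD, n = 4) with eRpL22-like and 11782 ± 3879 (SD, n = 3) with eRpL22. Droj2 had 11869 ± 1204 with eRpL22-like and 13847 ± 664 with eRpL22, and DnaJ-H 10616 ± 1276 with eRpL22-like and 10284 ± 3502 with eRpL22. Library values did not overlap for 3 of the 32, named after their values were seen, against 5.14% of all genes (2.76% lower and 2.38% higher with eRpL22-like). Droj2 was lower with eRpL22-like (log2 fold change -0.23, limma adjusted p = 0.945), and CG7872 and CG11035 were higher. CG7872 had 7408, 3165, 3078 and 2633 normalized reads in eRpL22-like replicates 1 to 4, against 1073.5, 571 and 1796 in eRpL22 replicates 1 to 3, a log2 fold change of 1.85 with an SE of 0.58 (limma unadjusted p = 0.00324, adjusted p = 0.945). CG11035 had 2608, 1109.6, 4217 and 1123 with eRpL22-like, against 286, 893 and 812 with eRpL22, a log2 fold change of 1.70 with an SE of 0.77 (limma unadjusted p = 0.0328, adjusted p = 0.945).

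Of 18 co-chaperone genes tested, limma called 0 and had 0 at an unadjusted p under 0.05, with 7 positive and 11 negative log2 fold changes and a median of -0.37. CG16817, which the reference names list as p23, a co-chaperone of Hsp90, had 10493 ± 4487 normalized reads (SD, n = 4) with eRpL22-like and 12899 ± 1771 (SD, n = 3) with eRpL22. Roe1, the nucleotide exchange factor of the mitochondrial Hsp70, had 6557 ± 2797 with eRpL22-like and 5732 ± 1641 with eRpL22, and Sgt had 3927 ± 876 with eRpL22-like and 5561 ± 2902 with eRpL22. Library values did not overlap for 3 of the 18, named after their values were seen, against 5.14% of all genes (2.76% lower and 2.38% higher with eRpL22-like). Hop, which bridges Hsp70 and Hsp90, had 1291, 1396, 3724 and 1496 normalized reads in eRpL22-like replicates 1 to 4, against 780.4, 888 and 937 in eRpL22 replicates 1 to 3. Limma put its log2 fold change at 1.04, SE 0.70 (adjusted p = 0.945). Cdc37, which brings kinases to Hsp90, had 1002, 1169, 897 and 1241 with eRpL22-like, against 1480.1, 1345 and 1559 with eRpL22, a log2 fold change of -0.45 with an SE of 0.70 (limma adjusted p = 0.957). PpD3, a protein phosphatase, had 859.7, 1158, 723 and 1249 with eRpL22-like, against 1302, 2187 and 2166 with eRpL22, a log2 fold change of -0.91 with an SE of 0.70 (limma adjusted p = 0.945).

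Small heat shock proteins, which hold unfolded proteins without ATP, had 0 of 7 tested genes called by limma and 0 at an unadjusted p under 0.05, 2 positive and 5 negative, with a median log2 fold change of -0.12. Hsp27 had 15035 ± 3192 normalized reads (SD, n = 4) with eRpL22-like and 15413 ± 1537 (SD, n = 3) with eRpL22, Hsp26 7175 ± 1882 with eRpL22-like and 8609 ± 1373 with eRpL22, and Hsp23 4519.9 ± 3136 with eRpL22-like and 4742 ± 1447 with eRpL22. Hsf, the heat shock transcription factor, had 159, 6.72, 0.934 and 153 normalized reads in eRpL22-like replicates 1 to 4, against 41.9, 173 and 194 in eRpL22 replicates 1 to 3. The non-coding RNA Hsromega, which is induced by heat, had 21.9, 437, 210.2 and 151 with eRpL22-like, against 558, 210.1 and 15.1 with eRpL22. Neither of these genes was called, and the median of the pair was -1.04. Of the 6 mitochondrial chaperonin genes, limma called 0 and had 1, CG9920, at an unadjusted p under 0.05, against 4.11% of all genes. Log2 fold changes were positive for 5 of the 6, against 48.8% of all genes, with a median of 0.11. CG9920 had 131735 ± 12750 normalized reads (SD, n = 4) with eRpL22-like and 109023 ± 11614 (SD, n = 3) with eRpL22, with overlap (limma unadjusted p = 0.0127, adjusted p = 0.945). Hsp60C had 56008 ± 5430.5 with eRpL22-like and 55938 ± 9901 with eRpL22, and Hsp60B 44980.1 ± 7820.1 with eRpL22-like and 43446 ± 8264 with eRpL22, both with overlap.

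**Figure D5:**
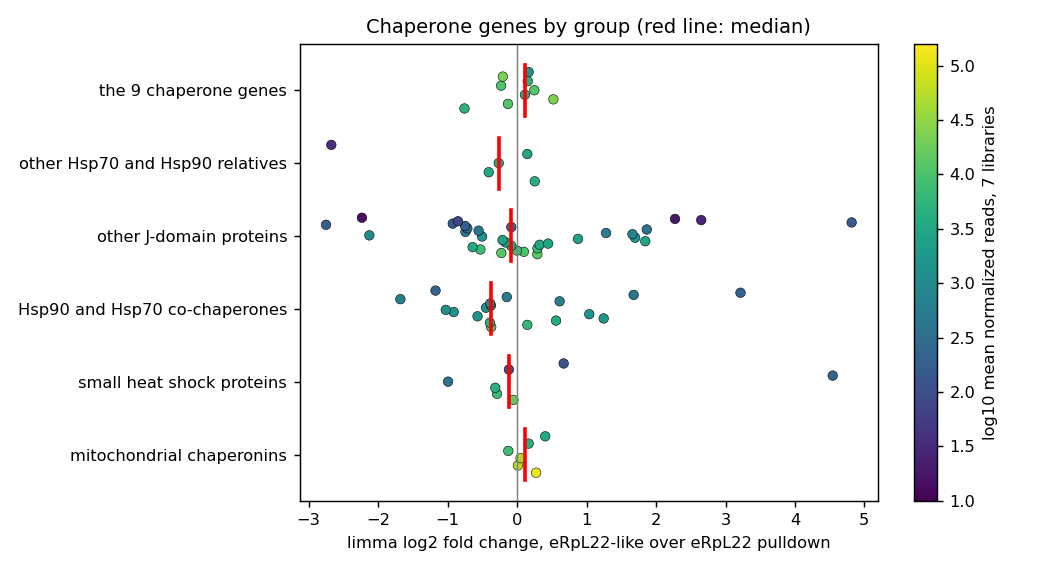
Limma log2 fold change, eRpL22-like on top, for each tested gene of the chaperone groups, coloured by the log10 of its mean normalized reads over 7 libraries, with the group median in red. The 9 chaperone genes lie between -0.76 and 0.52, and the points farthest from 0 are dark, that is, of genes with low means.

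The genes most like the 2 members with the most reads were sought among 3474 other genes with a mean of at least 1000, by the root-mean-square difference of their log2 values over the 7 libraries after each gene was centred on its own mean. Closest to Hsc70-4 were CG7140 at 0.22, TTLL3B at 0.22 and Calr, which encodes the calcium-binding chaperone calreticulin of the endoplasmic reticulum, at 0.23, where the median gene stood at 0.78. Calr had 24588, 11141, 15218 and 10609.9 normalized reads in eRpL22-like replicates 1 to 4, against 13880.3, 10408 and 10682 in eRpL22 replicates 1 to 3. It too was highest in eRpL22-like replicate 1, which the choice by likeness favours. Closest to Hsp83 were CG43343 at 0.050, S-Lap4, a leucyl aminopeptidase of sperm, at 0.083 and CG9016 at 0.093, where the median gene stood at 0.66. All 3 of these, like Hsp83, varied little between libraries, which follows from how they were chosen.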

How the data were processed

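Per the labels' protocols, Trizol RNA of ribosome immunoprecipitates went into Kapa Hyper prep libraries, read from one end. Trim Galore, cutadapt, STAR and DESeq2 stand in the submitters' processing notes. Not given in the sources used here: the genome build, annotation, counter and strand setting.

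Per the file headers, the deposited table gives the authors' normalized expression of 7 libraries, a signal that is never negative. It also holds the authors' log2 fold change, Wald statistic (a score), p-value and adjusted p-value. Column names were matched to titles by pulldown and replicate number, and 0 columns of per-sample values were unused. Dividing by the smallest step of each library gave whole reads for 100% of values (relative tolerance 1e-06). These reads cover the listed genes only. Of the 12051 gene IDs, 11952 matched the table of current gene names. Counting error of reads without molecular identifiers understates the error of molecules.

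The main test was limma 3.58.1 (R 4.3.3) on log2(normalized reads + 1), two-sided, with moderated variances that follow a trend with level, for genes whose mean reached 10. edgeR 4.0.16 and DESeq2 1.42.0 on recovered reads, other pseudocounts, filters and scalings, a replicate block and leaving out each library were the alternatives. Python 3.11.15 with pandas 2.3.3, numpy 2.4.6 and matplotlib 3.10.9 did the rest. Permutation tests compared absolute differences of group means over all 35 splits.

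Members, taken by name with no threshold on values, and gene lists were chosen with earlier results of these data known. The named genes are all members, the 3 genes with the highest means in each chaperone list, and the 3 most like each of the 2 members with the highest means, plus genes said to be chosen after their values were seen. Levels per transcript length were planned but not computed, since no length of a stated build was used, and no sequence is printed.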

Additional observations from a re-analysis of the deposited data

Results flagged for a closer look

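In the eRpL22-like pulldown, the ratio of Hsc70-2 over Hsc70-4 was 0.199 in replicate 1, far from the 0.525 to 0.581 of replicates 2 to 4. The gap to the nearest library, divided by the range of the 4 libraries, was 0.853, above Dixon's 95% critical value for 4 samples. Chance flags about 1 in 20 groups, and 14 groups of 4 libraries were examined. In that library Hsc70-4 had 44301 normalized reads, and Hsc70-2 had 8834. No cause was tested.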

How the results depend on the processing

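The count of genes called was 0 in the main test and 0 in 15 of the 17 alternatives. Quantile normalization called 1 gene, the chaperonin gene CG9920 (limma log2 fold change 0.53, adjusted p = 0.00180), and DESeq2 on recovered reads called 161. The cause was not tested. Leaving out each library in turn called 0 to 0 genes. No setting called any of the 9 members, and the direction held in 142 of 153 member estimates. Not all of these estimates could differ. Changing the filter on low values leaves each log2 fold change as in the main test. The replicate block gave the same member estimates as leaving out eRpL22-like replicate 4. Leaving out 1 library reversed 6 members. Hsc70-2 ran from -0.32 to 0.018, positive without eRpL22 replicate 3. Hsp68 ran from -0.18 (without eRpL22 replicate 1) to 0.42, and was -0.049 without eRpL22-like replicate 4. Hsc70-3 ran from -0.061 (without eRpL22-like replicate 3) to 0.46. Hsc70-5 ran from -0.51 to 0.12, positive without eRpL22-like replicate 1 and, at 0.05, without eRpL22 replicate 1. Hsc70Cb ran from -0.028 (without eRpL22-like replicate 3) to 0.36, and was -0.0044 without eRpL22-like replicate 1. DnaJ-1 ran from -0.28 (without eRpL22 replicate 2) to 0.58, and was negative without eRpL22-like replicate 2.

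With the replicate number as a block, limma called 0 genes and Hsp68 was at -0.049. The log2 differences of the ratios over Hsc70-4 were then -0.78 for Hsc70-2, -1.50 for Hsc70-1, -0.75 for Hsp68 and -0.88 for Hsp83. No analysed eRpL22 library shares the number of eRpL22-like replicate 4, so that library adds nothing to these estimates. They equal those obtained without eRpL22-like replicate 4 and are not a separate check. Deviations of same-numbered libraries over all genes tested correlated at 0.0071, 0.0195 and 0.0099, so no pairing by number was seen. Low and noisy genes weigh in these correlations, which cannot show that libraries were prepared apart. Not every library correlated best with its own number.

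Directions of the ratios and of the summed share held in every setting run. With 1 library left out, an exact permutation test of a ratio cannot reach 0.05.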
